A study of Rattus norvegicus with 10 samples.

Results

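The genes described are the axon guidance ligands and receptors of rat hippocampal neuron cultures: semaphorins of classes 3 to 7, plexins, neuropilins, ephrins and Eph receptors, Slits and Robos, netrins and netrin-Gs, and the netrin receptors Dcc and Unc5. The families were proposed with earlier results of these data known. Within them, genes were taken by symbol alone from a table of 11615 genes, and 56 genes matched. One of them, Unc50, matched by its letters alone: it is a membrane trafficking protein and no netrin receptor, which leaves 55 guidance genes (24 receptors, 20 membrane-bound ligands and 11 secreted ligands). Messenger RNA was sequenced from Wistar hippocampal neurons at DIV 15 (days in vitro), with 2 biological repeats in each of 5 groups. The mock group received a mock-cLTP solution, and the others were collected 5, 10, 60 and 120 min after a cLTP solution, a chemical stimulus meant to induce long-term potentiation of synapses throughout a dish. The composition of both solutions and the time at which mock cultures were collected are not stated by the labels. All cultures had been given fluorodeoxyuridine and uridine against glia at day 4.

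Guidance cues steer growing axons by attraction or repulsion, and many of them act again at synapses of the mature hippocampus, where they shape dendritic spines. Secreted class 3 semaphorins bind neuropilins, which signal through plexins, while most membrane-bound semaphorins bind plexins directly. Ephrins on one cell activate Eph receptor tyrosine kinases on another and can signal backwards into their own cell. Slits repel through Robos, and netrins attract through Dcc and repel through Unc5 receptors.

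The 10 libraries held from 32961534 to 54040657 reads. Levels are given as CPM, read numbers brought to one library size with trimmed-mean factors. Differences are log2 fold changes on the log2(CPM + 1) scale, which understates changes of low genes, with the standard error (SE) of a limma fit over all 10 libraries; a gene is called where its p, adjusted by Benjamini-Hochberg over the whole table, is under 0.05. With 2 libraries a group, p-values rest on the spread between biological repeats, pooled for each gene over all groups and moderated by its trend with level. They do not measure the spread of the 2 compared groups alone. The second principal component over the 56 matched genes held 18.5% of the variance. On this component, 5 min replicate 2 stood apart (-1.17, against -0.14 to 0.45 in the other libraries). Without it, 0 members were called at 5 or 10 min, 3 were higher at 60 min, and 10 were higher and 22 lower at 120 min. Markers of several cell types were present in mock cultures. The neuronal genes Slc17a7, the vesicular glutamate transporter, and Map2, a dendritic protein, had 887 ± 30 and 880 ± 57 CPM (SD, n = 2), and the astrocyte genes Gfap and Aqp4 had 10520 ± 67 and 2954 ± 29 CPM. The microglial complement genes C1qc and C1qa had 61.9 ± 0.38 and 58.2 ± 1.2 CPM, the myelin gene Mbp 491 ± 22 CPM, and the fibroblast collagen genes Col3a1 and Col1a1 1180 ± 44 and 1115 ± 63 CPM. In bulk RNA of such mixed cultures, fewer cells of a type and less RNA per cell cannot be told apart.

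In mock cultures the guidance genes covered a wide range of levels. Per kb of the length given in the table, the most abundant was Sema3c, a secreted semaphorin that signals through neuropilins (54.6 and 56.6 CPM per kb in the 2 mock libraries). It was followed by Epha4, an Eph receptor that binds ephrins of both classes (49.5 and 51.8 CPM per kb), Efnb3, a transmembrane ephrin (47.3 and 48.8 CPM per kb), and Nrp2, a semaphorin co-receptor (44.5 and 46.4 CPM per kb). Plxnb2, a receptor of class 4 semaphorins, had 42.4 and 42.1 CPM per kb. Sema3c lay above the other members in both mock libraries, and the order of these 5 genes was the same in both, with no overlap between neighbours. Further down, neighbours overlapped, such as Epha5 (17.9 and 19.3 CPM per kb) and Epha7 (17.3 and 18.7 CPM per kb). The median of the 56 members was 8.70 CPM per kb, against 14.8 CPM per kb over all genes, and 15 members lay above that median of all genes.

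Within the other families the highest mock levels per length belonged to Sema6d (32.8 and 31.7 CPM per kb), the lipid-anchored Sema7a (25.5 and 27.2), Unc5a (22 and 20.9), Ntn4 (17.6 and 17.4) and Robo2 (15.0 and 15.7 CPM per kb). Lower leaders were Slit3 (13.1 and 13.4), Ephb2 (12.1 in both libraries), Sema4f (10.8 and 10.7), Sema5a (8.43 and 9.10) and Dcc (8.54 and 8.71 CPM per kb). Efna2 led its family at 4.11 and 3.78 and Ntng1 the netrin-Gs at 3.80 and 3.40 CPM per kb. The lowest member was the lipid-anchored ephrin gene Efna1, at 0.979 and 1.03 CPM per kb. In all, 10 members had a mean under 10 CPM in mock, of which 3 (Efna2, Ephb3 and Ntn1) were called at 120 min.

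Against mock, 0 guidance genes passed the test at 5 and 10 min, 3 at 60 min and 29 at 120 min. At 5 min, 0 of 56 members were called, as were 0.00% of all genes (limma, smallest adjusted p among members 0.19; 6 members at an unadjusted p under 0.05; 0 members by limma-voom). Without 5 min replicate 1, 2 members were called lower at 5 min. At 10 min, 0 of 56 were called, against 0.0344% of all genes (smallest adjusted p among members 0.25; 17 members at an unadjusted p under 0.05; 0 members by limma-voom). At 60 min, 3 members were higher and 0 lower, 5.36% of members against 6.59% of all genes (4.64% higher and 1.95% lower; 8 members at an unadjusted p under 0.05; 3 higher and 0 lower by limma-voom). At 120 min, 10 were higher and 19 lower, 51.8% of members against 37.3% of all genes. The higher share at 120 min was 17.9% of members against 20.4% of all genes, and the lower share 33.9% against 16.9%. The median log2 fold change at 120 min was -0.14 over members and -0.01 over all genes. These 4 comparisons share the mock libraries. Tested over all 4 times at once, 31 members differed from mock (55.4%, against 41.3% of all genes). Among them were Efna4, Plxna3, Plxnb3 and Robo1, which were called at no single time. Plxna3 and Plxnb3 were lowest in 5 min replicate 2, the library that stood apart on a component computed from members that include them. Conversely, 3 members called at 120 min did not pass this F test: Efna2 (adjusted p = 0.15), Ntn1 (0.1) and Unc5c (0.16). Without either of the 2 libraries of 120 min, 14 members differed in this test.

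The split at 120 min moved with the scaling and with 1 mock library. With library totals in place of trimmed-mean factors, 8 members were higher and 25 lower (24.2% of calls higher, against 34.5% in the reported fit), and with upper-quartile factors 8 were higher and 26 lower. The median log2 fold change of all genes was then -0.067 and -0.065. Without mock replicate 2 the lower count at 120 min was 12.

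**Figure D1:**
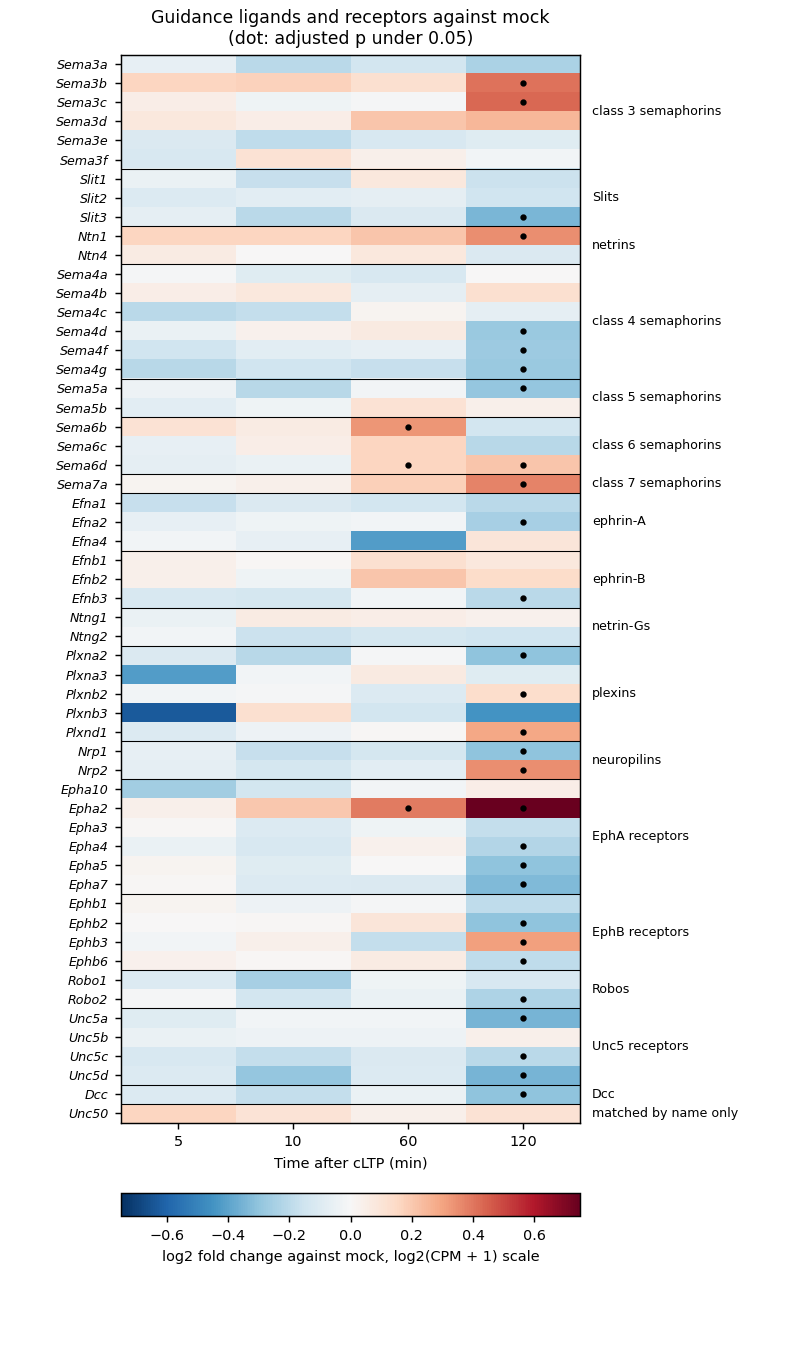
Log2 fold changes against mock (colour scale, log2(CPM + 1)) of the 56 matched genes in rows, by family, at 5, 10, 60 and 120 min in columns; a dot marks an adjusted p under 0.05. The 5 and 10 min columns hold no dot, the 60 min column holds 3 (Epha2, Sema6b and Sema6d) and the 120 min column 29.

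Promoter sequence was at hand for 43 of the 56 members and for 11 of 14 genes searched: those called at 60 min together with the 6 largest rises and 6 largest falls at 120 min among called genes whose libraries did not overlap those of mock. The 4 printed here are those of these 11 that hold a match to a longer motif of a factor driven by neuronal activity. Each is 300 bases, 250 before and 50 after the start of the gene, read 5′ to 3′ on the gene's strand, from RefSeq on build GRCr8; capitals mark the motif matches.
Epha2 (chr5:158888379-158888678, plus strand): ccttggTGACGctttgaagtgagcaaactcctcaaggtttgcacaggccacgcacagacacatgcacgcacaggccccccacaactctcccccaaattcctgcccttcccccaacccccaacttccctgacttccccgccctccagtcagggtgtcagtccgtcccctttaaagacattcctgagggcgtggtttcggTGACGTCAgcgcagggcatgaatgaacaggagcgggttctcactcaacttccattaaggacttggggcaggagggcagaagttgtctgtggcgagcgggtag
Sema6d (chr3:132337106-132337405, plus strand): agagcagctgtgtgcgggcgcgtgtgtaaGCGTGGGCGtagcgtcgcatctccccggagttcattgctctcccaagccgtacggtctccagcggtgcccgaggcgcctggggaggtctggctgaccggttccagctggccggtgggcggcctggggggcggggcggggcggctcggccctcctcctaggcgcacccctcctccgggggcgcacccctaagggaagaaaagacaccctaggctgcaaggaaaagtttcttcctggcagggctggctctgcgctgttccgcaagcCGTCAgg
Sema3c (chr4:18699578-18699877, minus strand): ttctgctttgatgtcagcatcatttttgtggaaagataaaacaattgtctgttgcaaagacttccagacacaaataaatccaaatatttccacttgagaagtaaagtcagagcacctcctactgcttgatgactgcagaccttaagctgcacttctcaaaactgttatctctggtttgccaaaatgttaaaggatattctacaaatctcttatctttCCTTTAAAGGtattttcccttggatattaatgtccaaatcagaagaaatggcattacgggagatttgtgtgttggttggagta
Plxna2 (chr13:108691280-108691579, plus strand): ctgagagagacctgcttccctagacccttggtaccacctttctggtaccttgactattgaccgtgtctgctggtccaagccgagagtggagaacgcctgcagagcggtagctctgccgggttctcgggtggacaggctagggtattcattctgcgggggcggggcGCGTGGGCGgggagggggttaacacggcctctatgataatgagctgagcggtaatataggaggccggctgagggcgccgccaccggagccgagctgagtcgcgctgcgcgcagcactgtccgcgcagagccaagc
Epha2 holds a full cAMP response element, TGACGTCA, whose first base lies 52 bases before the start, a match found in 3.27% of 8833 promoters of genes in the table. Sema6d and Plxna2 each hold the EGR motif GCGTGGGCG (1.09% of promoters), and Sema3c holds a CArG box, the motif of serum response factor (1.18%). The shorter CRE site TGACG, which is part of the full element, was also matched in Sema6d, Sema7a and Slit3 (32% of promoters). The AP-1 motif TGANTCA (4.72% of promoters) and the NF-kB motif (4.90%) were in none of these 11 windows. Over the 43 members with a promoter, the shares were 2.33% for the full element, 20.9% for TGACG and 2.33% each for AP-1 and NF-kB. These lay below the shares of all promoters. The EGR share of 4.65% (2 members) and the CArG share of 2.33% (1 member) lay above them. Both strands were searched. The matches are a description of letters and were set against no binding data.

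At 60 min the 3 genes that rose were Epha2, Sema6b and Sema6d. Epha2 (chromosome 5, 159845773 to 159874203, plus strand; gene coordinates here are on rn6), a receptor tyrosine kinase for ephrin-A ligands, had 17.0 and 15.7 CPM in mock, 16.6 and 17.1 at 5 min, 18.5 and 19.5 at 10 min, 22.2 and 21.2 at 60 min, and 25.2 and 31.0 CPM at 120 min. From 10 min on, its libraries lay above both mock libraries. The log2 fold change against mock was 0.39 at 60 min (SE 0.09, adjusted p = 0.018) and 0.74 at 120 min (SE 0.09, 1.67-fold, adjusted p = 5.0e-05), the largest rise among the members. Its call at 60 min was lost without mock replicate 2 (adjusted p = 0.13), 60 min replicate 1 (0.15) or 60 min replicate 2 (0.063), while that at 120 min held in all 20 alternatives of scaling, test, filter, pseudocount and samples that kept the threshold of 0.05. The 60 min count of members was 1 without any single one of these 3 libraries.

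Sema6b (chromosome 9, 10941613 to 10951252, plus strand), a transmembrane semaphorin that signals through class A plexins, peaked at 60 min. It had 45.2 and 49.9 CPM in mock, 51.7 and 51.1 at 5 min, 48.4 and 50.7 at 10 min, 60.5 and 59.2 at 60 min, and 42.8 and 43.6 CPM at 120 min. Both 60 min libraries were the highest of the 10 and both 120 min libraries the lowest. The difference from mock was 0.33 at 60 min (SE 0.05, adjusted p = 0.0025) and -0.14 at 120 min (SE 0.05, adjusted p = 0.071), and that of 120 min from 60 min was -0.46 (SE 0.05, adjusted p = 6.2e-05). The 60 min call held in all 20 alternatives (adjusted p up to 0.042). At 120 min Sema6b was called lower than mock with library totals (-0.20, adjusted p = 0.013), with upper-quartile factors (0.014) and without mock replicate 1 (0.03).

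Sema6d, another transmembrane semaphorin of the same class, had 193 and 186 CPM in mock, 180 and 181 at 5 min, 181 and 184 at 10 min, 212 and 210 at 60 min, and 224 and 216 CPM at 120 min. The libraries of both late times lay above all others. Its log2 fold change was 0.16 at 60 min (SE 0.04, adjusted p = 0.032) and 0.21 at 120 min (SE 0.04, adjusted p = 0.0012). The 60 min call was lost without either mock, either 60 min or either 120 min library (adjusted p from 0.054 to 0.24) and with library totals (0.096) or upper-quartile factors (0.074); the 120 min call held in all 20 alternatives. Against 10 min, Sema6d (0.21, adjusted p = 0.0058) and Sema6b (0.27, adjusted p = 0.012) were the 2 members called at 60 min, 3.57% of members against 5.63% of all genes (3.70% higher and 1.93% lower). That count was 4 without 5 min replicate 1, 5 min replicate 2 or 10 min replicate 1, and 1 without either 60 min library.

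**Figure D2:**
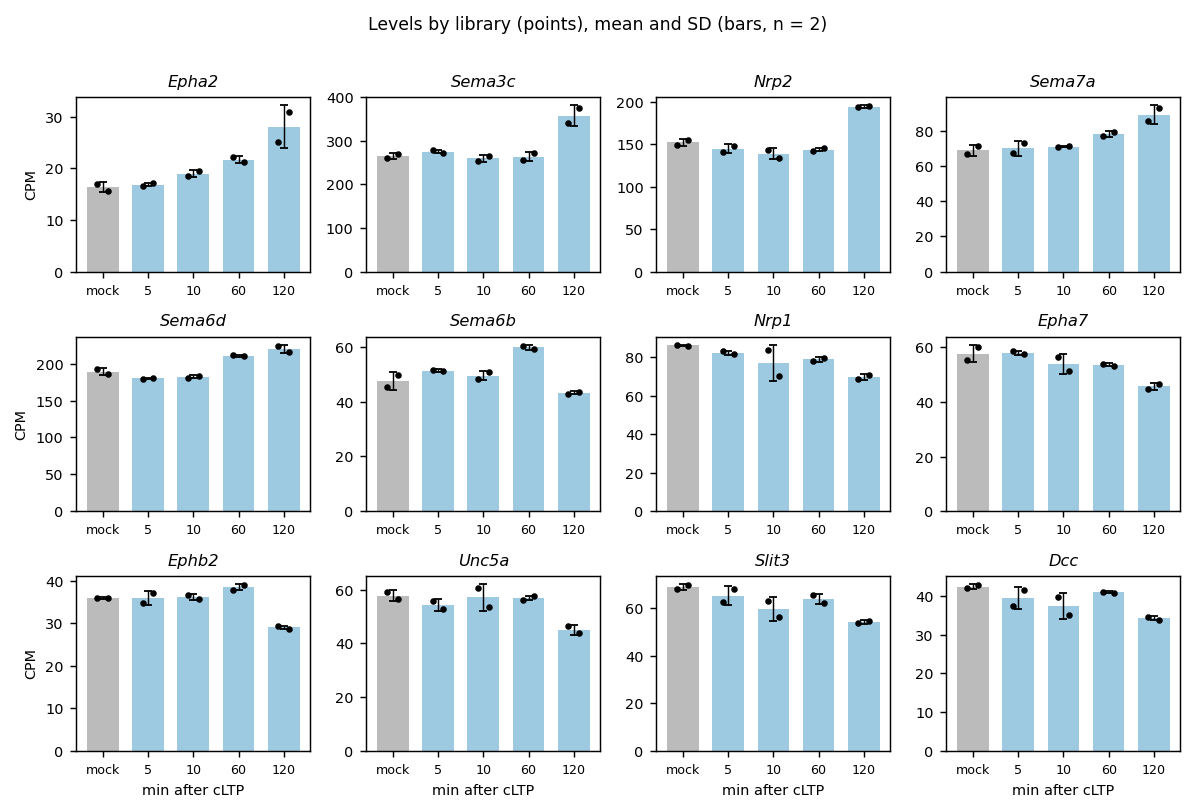
CPM of 12 guidance genes in mock cultures and 5, 10, 60 and 120 min after cLTP (x axis); points are libraries, bars the mean and whiskers the SD of 2 libraries. Epha2 reached 25.2 and 31.0 CPM at 120 min against 17.0 and 15.7 CPM in mock, Sema6b was highest at 60 min, and Nrp2 and Nrp1 moved to opposite sides of mock at 120 min.

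Receptors held 17 of the 29 calls at 120 min: 5 of 24 were higher and 12 lower (median log2 fold change -0.20). The higher share was 20.8%, against 20.4% of all genes, and the lower share 50%, against 16.9%. Of 10 Eph receptors, 2 were higher and 5 lower. Among EphA receptors, Epha2 rose as given above, while Epha7, Epha5 and Epha4 fell. Epha7 (chromosome 5, 43602903 to 43757620, plus strand) had 44.9 and 46.6 CPM at 120 min, against 55.5 and 60.0 CPM in mock (-0.33 on the log2 scale, SE 0.06, adjusted p = 9.1e-04). Epha5 had 168 and 180 CPM at 120 min, against 206 and 222 CPM in mock (-0.30, SE 0.05, adjusted p = 0.001). Epha4 had 270 and 281 CPM at 120 min, against 314 and 328 CPM in mock (-0.22, SE 0.05, adjusted p = 0.0048), a call lost without mock replicate 2 (adjusted p = 0.052). In all 3 genes both 120 min libraries lay below both mock libraries, a condition of the rule that chose Epha7 and Epha5. At 60 min these 3 genes had not been called (adjusted p from 0.4 to 1). Epha3 and Epha10 were called at none of the 4 times.

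Ephb2, an ephrin-B receptor that binds NMDA receptors at excitatory synapses (chromosome 5, 155024478 to 155204434, minus strand), had 36 and 35.8 CPM in mock, 34.8 and 37.0 at 5 min, 36.6 and 35.7 at 10 min, 37.9 and 38.9 at 60 min, and 29.3 and 28.7 CPM at 120 min. Its 8 libraries up to 60 min lay within 34.8 to 38.9 CPM and both 120 min libraries below them. The log2 fold change at 120 min was -0.30 against mock (SE 0.05, adjusted p = 9.3e-04) and -0.39 against 60 min (SE 0.05, adjusted p = 1.5e-04). Ephb3, a further ephrin-B receptor, went the other way, with 11.5 and 10.9 CPM at 120 min, against 9.13 and 8.50 CPM in mock (0.31, SE 0.11, adjusted p = 0.039). This call was lost without either mock, either 60 min or either 120 min library (adjusted p from 0.053 to 0.18) and with library totals (0.088) or upper-quartile factors (0.074). Ephb6, whose kinase domain is inactive, had 41.8 and 41.9 CPM at 120 min, against 47.0 and 48.7 CPM in mock (-0.19, SE 0.06, adjusted p = 0.028), and lost the call without either mock or either 120 min library (adjusted p from 0.062 to 0.15). Ephb1 had 21.8 and 22.2 CPM at 120 min, against 26.2 and 24.2 CPM in mock (adjusted p = 0.061).

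The 2 neuropilins, co-receptors of secreted semaphorins, went opposite ways at 120 min. Nrp2 (chromosome 9, 69497434 to 69609372, plus strand) had 149 and 155 CPM in mock, 141 and 148 at 5 min, 143 and 134 at 10 min, 142 and 145 at 60 min, and 193 and 195 CPM at 120 min. Nrp1 (chromosome 19, 61332351 to 61484110, plus strand) had 86.3 and 85.9 CPM in mock, 83.0 and 81.6 at 5 min, 83.5 and 70.3 at 10 min, 77.9 and 79.8 at 60 min, and 68.8 and 70.8 CPM at 120 min. No 120 min library of either gene lay within its mock range, a condition of the rule by which these changes were chosen. Against mock, Nrp2 changed by 0.35 (SE 0.05, adjusted p = 1.0e-04) and Nrp1 by -0.30 (SE 0.07, adjusted p = 0.0041), and both calls held in all 20 alternatives.

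Of 5 plexins, the signalling receptors of semaphorins, 2 were higher and 1 lower at 120 min. The higher share was 40.0%, against 20.4% of all genes, and the lower share 20.0%, near the 16.9% of all genes. Plxnd1, the receptor of Sema3e, had 22.9 and 22.5 CPM at 120 min, against 19.0 and 17.7 CPM in mock (0.29, SE 0.07, adjusted p = 0.0074). Plxnb2 had 316 and 311 CPM at 120 min, against 287 and 285 CPM in mock (0.13, SE 0.04, adjusted p = 0.032). Plxna2, a receptor of class 6 semaphorins, had 58.2 and 66.6 CPM at 120 min, against 74.7 and 79.5 CPM in mock (-0.30, SE 0.08, adjusted p = 0.0099). In each case the libraries of both groups did not overlap, a condition of the rule by which these changes were chosen. The calls were lost without mock replicate 2 in all 3 genes (adjusted p from 0.068 to 0.13), without 120 min replicate 1 in Plxna2 (0.11) and Plxnb2 (0.15), and in Plxnb2 also without mock replicate 1 (0.1) or 120 min replicate 2 (0.094) and with library totals (0.19) or upper-quartile factors (0.21). Sema3e itself had 46.4 and 50.3 CPM at 120 min, against 50.6 and 52.2 CPM in mock (adjusted p = 0.26).

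Of the 5 netrin receptors, 4 fell at 120 min, and 0 rose. Over all genes 16.9% were lower and 20.4% higher. Dcc, the attractive receptor (chromosome 18, 66523120 to 67629801, minus strand), had 34.7 and 33.9 CPM at 120 min, against 42.1 and 42.9 CPM in mock (-0.30, SE 0.07, adjusted p = 0.0043). Unc5a (chromosome 17, 10153994 to 10208360, minus strand), a repulsive receptor, had 46.5 and 43.8 CPM at 120 min, against 59.3 and 56.4 CPM in mock (-0.35, SE 0.06, adjusted p = 0.0011). Unc5d had 17.8 and 17.7 CPM at 120 min, against 22.1 and 23.9 CPM in mock (-0.35, SE 0.08, adjusted p = 0.0067). Both 120 min libraries lay below both mock libraries in each of these genes, a condition of the rule by which these changes were chosen. Unc5c was called at -0.20 (SE 0.07, adjusted p = 0.04) with 79.0 and 88.2 CPM at 120 min, against 93.2 and 99.4 CPM in mock. Unc5d lost its call without mock replicate 2 (adjusted p = 0.061), and Unc5c without either mock, either 60 min library or 120 min replicate 1 (adjusted p from 0.055 to 0.29). Unc5b had 25.5 and 27.5 CPM at 120 min, against 24.4 and 27.3 CPM in mock, overlapping groups (adjusted p = 0.75).

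The Slit receptor Robo2 fell to 118 and 116 CPM at 120 min, against 135 and 141 CPM in mock (-0.23, SE 0.04, adjusted p = 0.0016), and the call held in all 20 alternatives. Its relative Robo1 had 59.8 and 57.9 CPM at 120 min, against 61.7 and 66.8 CPM in mock (-0.12, SE 0.06, adjusted p = 0.14), so that a change of Robo1 at this time was not detected in this design.

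**Figure D3:**
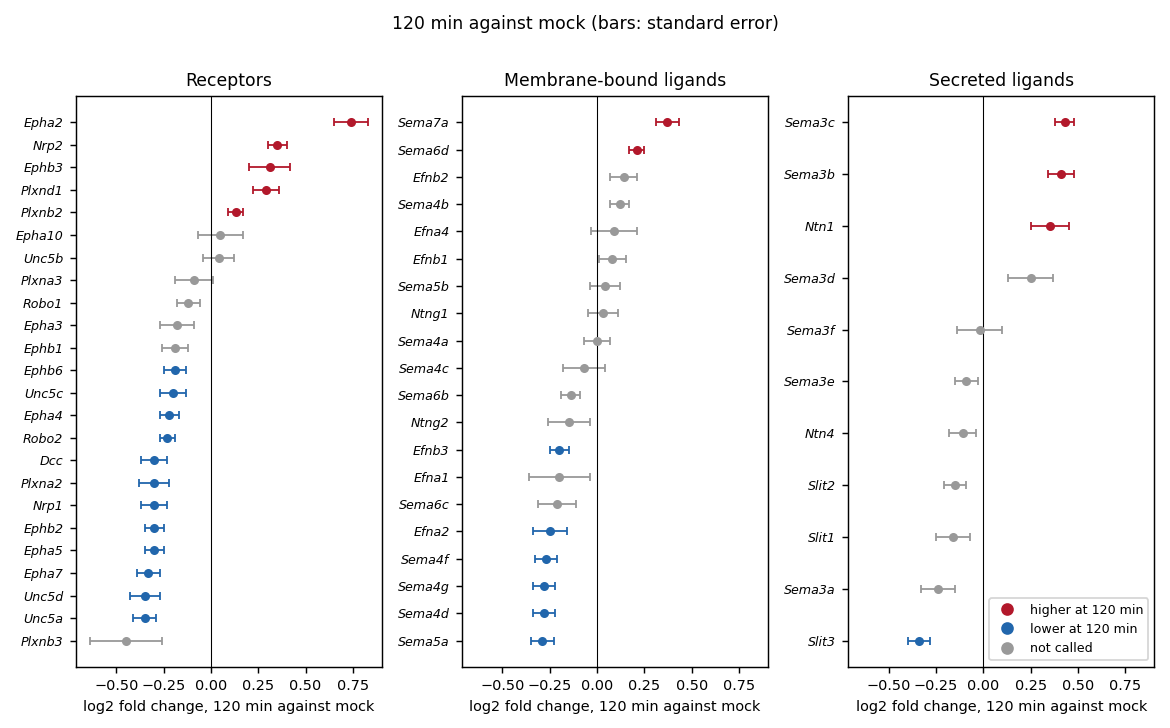
Log2 fold change at 120 min against mock (x axis, log2(CPM + 1) scale) of receptors, membrane-bound ligands and secreted ligands, in 3 panels; whiskers are standard errors, and colours mark genes called higher, called lower and not called. Epha2 stands farthest to the right at 0.74, and 12 of 24 receptors are called lower, from -0.35 to -0.19.

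Among the 11 secreted ligands 3 rose and 1 fell at 120 min (median log2 fold change -0.09); the 36.4% called lay near the 37.3% of all genes. Sema3c (chromosome 4, 14318276 to 14488225, minus strand) had 260 and 270 CPM in mock, 278 and 272 at 5 min, 254 and 265 at 10 min, 256 and 271 at 60 min, and 340 and 374 CPM at 120 min. Its 8 earlier libraries lay within 254 to 278 CPM. The log2 fold change at 120 min was 0.43 against mock (SE 0.05, adjusted p = 5.8e-05) and 0.43 against 60 min (SE 0.05, adjusted p = 6.3e-05). Sema3b, which also binds neuropilins, had 22.5 and 20.4 CPM at 120 min, against 15.4 and 16.4 CPM in mock (0.41, SE 0.07, adjusted p = 6.1e-04). Both semaphorin calls held in all 20 alternatives, and the other 4 class 3 semaphorins were not called.

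Ntn1, the netrin that acts on Dcc and Unc5 receptors, was measured at a low level: 9.93 and 8.95 CPM at 120 min, against 7.04 and 7.35 CPM in mock (0.35, SE 0.10, adjusted p = 0.016). Its call was lost without mock replicate 1 (adjusted p = 0.084), mock replicate 2 (0.052) or 120 min replicate 1 (0.12). Ntn4, a netrin of basement membranes, had 34.4 and 33.2 CPM at 120 min, against 36.7 and 36.3 CPM in mock (-0.11, SE 0.07, adjusted p = 0.24). Slit3 (chromosome 10, 19924200 to 20517918, plus strand), a Robo ligand, fell to 53.7 and 54.8 CPM at 120 min, against 68.0 and 69.7 CPM in mock (-0.34, SE 0.06, adjusted p = 0.0013). Slit1 and Slit2 had log2 fold changes of -0.16 and -0.15 without passing (adjusted p = 0.18 and 0.096).

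Of the 20 membrane-bound ligands 2 rose and 6 fell at 120 min (median log2 fold change -0.10). That is 40.0% called, near the 37.3% of all genes, with 10.0% higher against 20.4% and 30% lower against 16.9%. Sema7a, a lipid-anchored semaphorin that signals through integrins (chromosome 8, 62723788 to 62745868, plus strand), had 66.8 and 71.4 CPM in mock, 67.4 and 73.3 at 5 min, 71.1 and 71.4 at 10 min, 77.3 and 79.5 at 60 min, and 85.6 and 93.2 CPM at 120 min. The libraries of both late times lay above all others. The difference was called at 120 min (0.37, SE 0.06, adjusted p = 4.6e-04) and not at 60 min (0.18, SE 0.06, adjusted p = 0.1). Class 4 semaphorins, ligands of plexin-B receptors, had 0 rises and 3 falls of 6. Sema4d had 24.3 and 24.1 CPM at 120 min, against 30.2 and 29.2 CPM in mock (-0.28, SE 0.06, adjusted p = 0.0037). Sema4g had 21.5 and 20.8 CPM at 120 min, against 25.9 and 26.1 CPM in mock (-0.28, SE 0.06, adjusted p = 0.0036). Sema4f had 35.9 and 34.6 CPM at 120 min, against 43.0 and 42.5 CPM in mock (-0.27, SE 0.06, adjusted p = 0.0025). All 3 of these falls held in all 20 alternatives.

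Sema5a, a transmembrane semaphorin with thrombospondin repeats, had 77.4 and 73.1 CPM at 120 min, against 88.5 and 95.6 CPM in mock (-0.29, SE 0.06, adjusted p = 0.0035). Of the 6 ephrins 2 fell, while 16.9% of all genes were lower. Efnb3 had 134 and 125 CPM at 120 min, against 147 and 152 CPM in mock (-0.20, SE 0.05, adjusted p = 0.012), a call lost without mock replicate 2 (adjusted p = 0.082) or 120 min replicate 2 (0.12). Efna2 had 3.76 and 3.75 CPM at 120 min, against 4.83 and 4.45 CPM in mock (-0.25, SE 0.09, adjusted p = 0.045), and its call was lost in 11 of 20 alternatives, among them those without either mock, either 10 min, either 60 min or either 120 min library (adjusted p from 0.053 to 0.22). Neither netrin-G gene was called: Ntng1, a lipid-anchored adhesion ligand, had 19.0 and 18.4 CPM at 120 min, against 19.3 and 17.3 CPM in mock (adjusted p = 0.8).

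Between 60 and 120 min, 10 members were higher at 120 min and 18 lower (28 of 56 members, against 35.8% of all genes; higher 17.9% against 19.8%, lower 32.1% against 16%). The largest differences upward were Efna4 (0.51), Ephb3 (0.49), Nrp2 (0.44) and Sema3c (0.43), and those downward Sema6b (-0.46), Ephb2 (-0.39), Sema6c (-0.36) and Sema4d (-0.35). Of the 29 members called against mock at 120 min, 23 were also called against 60 min in the same direction; both comparisons use the 120 min libraries. Another 5 were called against 60 min and not against mock at 120 min, namely Efna4, Ntn4, Sema4b, Sema6b and Sema6c. Efna4, a lipid-anchored ephrin at the low end of the range, had 2.52 and 2.20 CPM at 120 min, against 1.55 and 1.17 CPM at 60 min (SE 0.12, adjusted p = 0.006), with 2.15 CPM in both mock libraries. Sema6c had 11.9 and 9.64 CPM at 120 min, against 14.4 and 13.7 CPM at 60 min (SE 0.10, adjusted p = 0.012). Against mock, Sema6c was called lower at 120 min with upper-quartile factors (adjusted p = 0.048) and without 120 min replicate 1 (0.031). Sema6c overlaps the row of Lysmd1 on the same strand, and how reads in the overlap were counted was not examined. The call of Efna4 was lost without 60 min replicate 2 (adjusted p = 0.061) or 120 min replicate 1 (0.054), and that of Sema6c without 60 min replicate 1 (0.071) or 120 min replicate 2 (0.14). The higher count was 5 without 60 min replicate 2 and 6 without 120 min replicate 1, and the lower count was 11 without 60 min replicate 1 and 10 without 120 min replicate 2.

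Between 5 and 10 min, 0 members were called, against 0.00861% of all genes (limma, smallest adjusted p among members 0.12; 6 at an unadjusted p under 0.05; 0 by limma-voom). Without 5 min replicate 1, 2 members were higher at 10 min than at 5 min.

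Levels of several cell type markers were lower at 120 min, when 10 members were called higher and 19 lower. Over all genes, 20.4% were called higher and 16.9% lower at 120 min. Of 14 neuron markers 0 were higher and 8 lower (57.1%). Their summed levels were 4664 and 4845 CPM at 120 min, against 5366 and 5595 CPM in mock. Of 14 microglia markers 0 were higher and 11 lower (78.6%), with sums of 250 and 240 CPM at 120 min, against 338 and 331 CPM in mock. Of 14 astrocyte markers 4 were higher (28.6%) and 1 lower (7.14%), with a median log2 fold change of -0.02. Their sums were 25241 and 24035 CPM at 120 min, against 22711 and 22858 CPM in mock. Of these, Gfap alone had 12274 and 11609 CPM at 120 min, against 10473 and 10568 CPM in mock. Oligodendrocyte markers had 0 higher and 3 lower (25.0%) of 12 measured (1524 and 1477 CPM at 120 min, against 1709 and 1622 CPM in mock). Vascular and fibroblast markers had 1 higher (12.5%) and 2 lower (25.0%) of 8 (2201 and 2023 CPM at 120 min, against 2378 and 2545 CPM in mock). The lowest marker had 1.22 CPM in mock. Every gene of the deposited table had at least 9 reads in each library, so a marker at 0 could not appear. Not found there were 1 of 13 oligodendrocyte markers and 5 of 13 vascular and fibroblast markers. The part of cell type levels in the guidance gene results was not tested.

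The 19 members called lower at 120 min had a median genomic span of 155 kb, against 34.1 kb for members called higher and 40.9 kb for those not called; 7 of the 19 spanned less than 100 kb. Over all genes the medians ran the same way, at 33.4 kb for lower, 19.8 kb for higher and 20.7 kb for uncalled genes. Of 26 members spanning 100 kb or more, 3 were higher and 12 lower (46.2% lower), against 31.4% lower of 1575 genes of that span in the whole table. Of 16 members spanning 10 to 30 kb, 4 were higher and 5 lower (31.2% lower), against 14.6% lower of 3765 genes. In the other classes the lower share was near that of all genes or below it: 14.3% of 7 members under 10 kb, against 11.7% of genes, and 14.3% of 7 members of 30 to 100 kb, against 17.5% of genes. The longest member was Dcc, at 1107 kb. The part of span in the results was not tested.

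**Figure D4:**
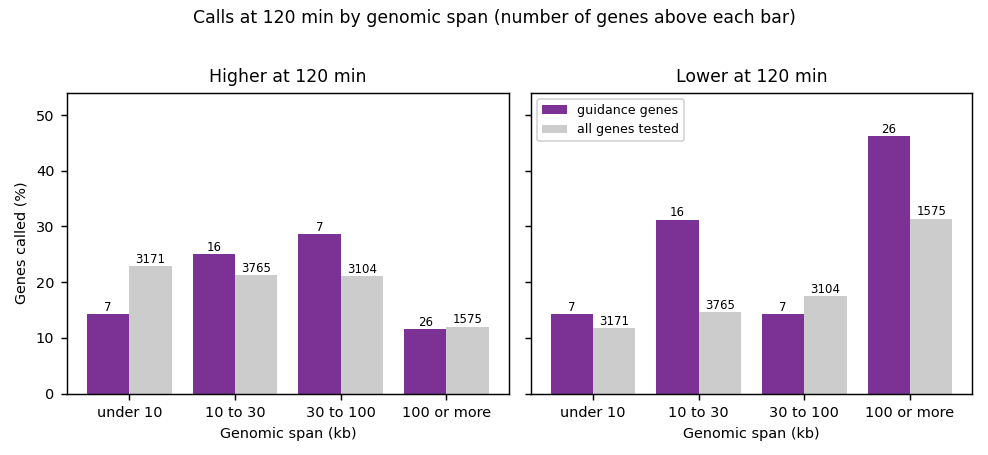
Percentage of genes called higher (left panel) and lower (right panel) at 120 min against mock, by genomic span in kb. Bars are the 56 matched genes (Unc50 among them, labelled guidance genes) and all 11615 genes tested, with the number of genes above each bar. The lower share is largest in the class of 100 kb or more, at 46.2% of guidance genes and 31.4% of all genes.

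Among listed guidance effectors and co-receptors, the largest changes were those of Rnd3 and Rnd1. The list held 73 genes, of which 65 were measured, and it had been drawn up with earlier results of these data known. It also holds cues, other receptors and adhesion proteins, such as Rgma, Cxcr4 and Cntn2. All its genes are called effectors here for short. At 60 min 4 were higher (6.15%, against 4.64% of all genes) and 2 lower (3.08%, against 1.95%). At 120 min 10 were higher (15.4%, against 20.4% of all genes) and 20 lower (30.8%, against 16.9%; median log2 fold change -0.05 at 120 min, against -0.01 over all genes). Rnd3, an atypical small GTPase, had 56.2 and 55.8 CPM in mock, 56.7 and 52.6 at 5 min, 57.5 and 59.2 at 10 min, 96.7 in both 60 min libraries, and 422 and 396 CPM at 120 min. Rnd1, an atypical small GTPase that binds plexins, had 20.0 and 19.9 CPM in mock, 19.4 and 21.2 at 5 min, 18.6 and 20.1 at 10 min, 90.8 and 86.4 at 60 min, and 95.0 and 94.4 CPM at 120 min. Rnd1 had thus reached nearly its 120 min level at 60 min, whereas Rnd3 had not. At 120 min the log2 fold changes were 2.85 for Rnd3 (SE 0.05, 7.19-fold, adjusted p = 2.7e-12) and 2.19 for Rnd1 (SE 0.06, 4.57-fold, adjusted p = 1.1e-10).

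Other effectors that rose at 120 min were Met, the hepatocyte growth factor receptor that associates with plexin-B receptors, at 48.7 and 47.5 CPM, against 19.3 and 19.5 CPM in mock (1.27, SE 0.07, adjusted p = 9.9e-08), and Arhgef12, a guanine nucleotide exchange factor bound by plexin-B receptors, at 365 and 370 CPM, against 227 and 226 CPM in mock (0.69, SE 0.05, adjusted p = 5.3e-07). Mical1, an actin-oxidising enzyme downstream of plexins, had 19.0 and 20.2 CPM at 120 min, against 14.2 and 12.3 CPM in mock (0.53, SE 0.09, adjusted p = 8.7e-04). Neither Met, Arhgef12 nor Mical1 was called at 60 min. Among the falls, Rgma, a lipid-anchored repulsive cue, had 63.4 and 66.0 CPM at 120 min, against 95.2 and 89.7 CPM in mock (-0.51, SE 0.05, adjusted p = 9.7e-06). Cdon, an immunoglobulin superfamily co-receptor, had 15.1 and 15.2 CPM at 120 min, against 21.7 and 19.6 CPM in mock (-0.42, SE 0.08, adjusted p = 0.0019). Flrt1, an adhesion protein, had 13.1 and 13.5 CPM at 120 min, against 17.3 and 17.8 CPM in mock (-0.38, SE 0.08, adjusted p = 0.0028). In all 3 of these genes both 120 min libraries lay below both mock libraries, as they did in the next pair. Cxcr4, a chemokine receptor, had 20.1 and 24.2 CPM at 120 min, against 30.1 and 27.4 CPM in mock (-0.37, SE 0.09, adjusted p = 0.01). Cntn2, an axonal adhesion protein, had 19.3 and 19.5 CPM at 120 min, against 23.1 and 25.5 CPM in mock (-0.31, SE 0.09, adjusted p = 0.015). Cxcr4 lost its call without mock replicate 1 or 120 min replicate 1, and Cntn2 without mock replicate 2 or either 120 min library (adjusted p up to 0.12). The lower count at 120 min was 13 without mock replicate 1, 9 without mock replicate 2 and 10 without 120 min replicate 2. At 60 min 1 effector was lower when 10 min replicate 1 or 2 was left out, and 0 were lower when any single mock, 60 min or 120 min library was.

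**Figure D5:**
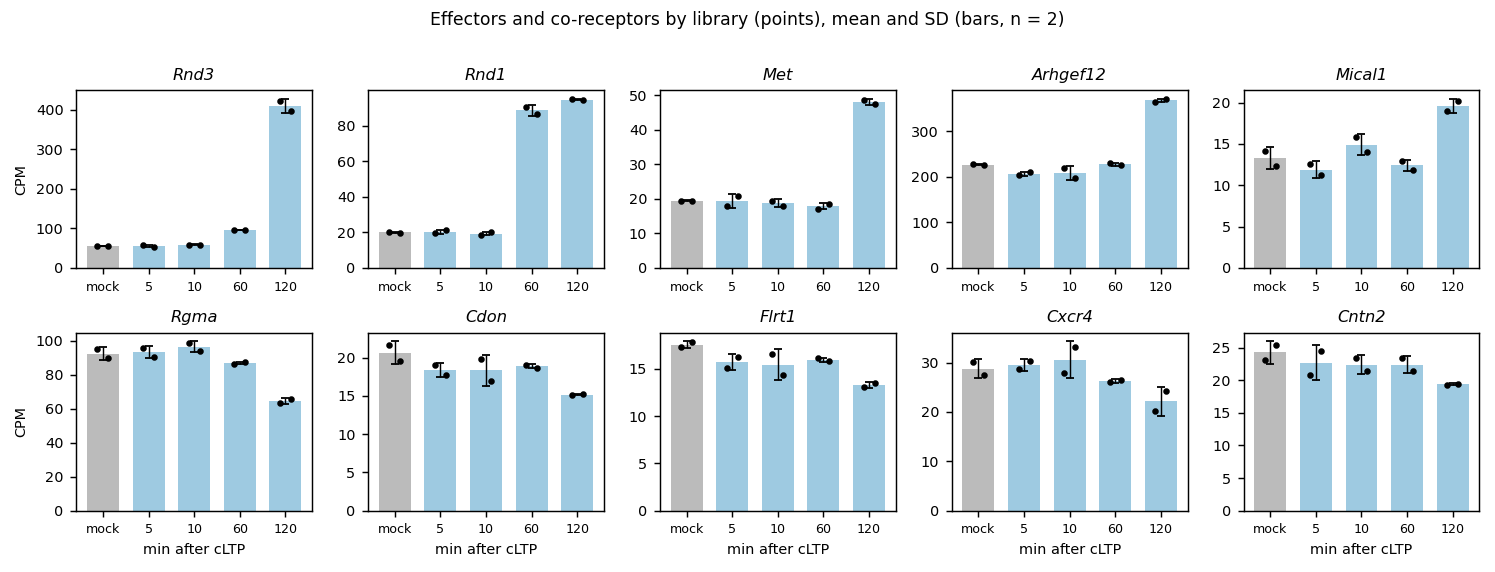
CPM of 10 effectors and co-receptors in mock cultures and 5, 10, 60 and 120 min after cLTP (x axis); points are libraries, bars the mean and whiskers the SD of 2 libraries. The upper row holds the 5 largest rises at 120 min and the lower row the 5 largest falls; Rnd1 was at 90.8 and 86.4 CPM by 60 min, Rnd3 reached 422 and 396 CPM at 120 min.

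The authors' deposited table gives its own fold changes and adjusted p for each time against mock. In the authors' deposited table, 0 members were higher and 1 lower at 5 min, 0 were called at 10 min, 4 were higher and 1 lower at 60 min, and 10 were higher and 22 lower at 120 min, at an adjusted p under 0.05. Of the 29 limma calls at 120 min, 28 were called there in the same direction, as were 3 of 3 at 60 min. The exception was Efna2, with a log2 fold change of -0.30 and an adjusted p of 0.092 in the authors' deposited table.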

How the data were processed

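Poly(A) RNA from cultured rat hippocampal neurons was sequenced after ribosomal RNA depletion, per the labels' protocols. The submitters' processing notes name bcl2fastq, TopHat2 2.1.0, HTSeq, edgeR and build rn6; no annotation or strand setting is named there. Levels are CPM per gene, per the file headers, and the authors' deposited table also holds log2 fold changes and adjusted p-values from their own comparisons. Its lowest CPM value stood for 9 to 20 reads, by library, and library totals ran from 32961534 to 54040657 reads. Another 6 columns repeat a mock column and were not used. In 22 rows a serial number stands for the symbol.

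Trimmed-mean (TMM) factors were computed from the deposited CPM steps, trimming 30% of log ratios and 5% of levels. limma 3.58.1 (R 4.3.3) was fitted with an intensity trend to log2(CPM + 1) of all 11615 genes and 10 libraries, with 1 mean a group and 5 residual degrees of freedom. Tests were two-sided, and p-values were Benjamini-Hochberg adjusted over all genes with a threshold of 0.05. The fit was tested on simulated data. Tables and figures used Python 3.11.15, pandas 2.3.3 and matplotlib 3.10.9. The design foresaw count tests on reads worked out from CPM; as the deposited unit is CPM, edgeR and DESeq2 were not run and limma-voom on such reads was an alternative. Other alternatives were other scalings, pseudocounts of 0.1 and 5, a mean CPM of at least 1, a threshold of 0.01, the repeat number as a block, only the 2 groups compared, no 5 min libraries, and each library left out in turn. A group then left with 1 library is assumed to vary like the other groups.

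The gene families and the marker and effector lists were proposed with earlier results of these data known; within them, members were taken by symbol alone. Library values are given for members called up to 60 min, among called members up to 12 rises and 12 falls at 120 min without overlap with mock, the 4 largest differences each way between 60 and 120 min, and the most abundant member of each family, and for the 5 largest rises and 5 largest falls among effectors; the 2 most abundant genes stand for each marker list, of which 1 oligodendrocyte gene is not reported here. Members outside that rule were named after their values were seen. Gene coordinates are those of the file (rn6), and promoters are from RefSeq on GRCr8; the builds were not mixed.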

Additional observations from a re-analysis of the deposited data

Results flagged for a closer look

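In 28 members the effect against mock at 120 min differed from that at 60 min, by the limma test of the difference itself (120 min minus 60 min on the log2 scale), and the 4 largest such differences in each direction are given. Upward, the difference was 0.51 for Efna4, 0.49 for Ephb3, 0.44 for Nrp2 and 0.43 for Sema3c. Downward, it was -0.46 for Sema6b, -0.39 for Ephb2, -0.36 for Sema6c and -0.35 for Sema4d. Ephb3, Nrp2 and Sema3c were called against mock at 120 min and not at 60 min, while Sema6b was called at 60 min and, in the reported fit, not at 120 min. In that fit Efna4 and Sema6c were called against mock at neither time; Sema6b and Sema6c were called lower at 120 min under some alternatives. Efna4 and Sema6c each lost the call of the difference when 1 of 2 libraries was left out: 60 min replicate 2 or 120 min replicate 1 for Efna4, and 60 min replicate 1 or 120 min replicate 2 for Sema6c. Within groups of 2 libraries no test for a library far from the others was made.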

How the results depend on the processing

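Over 20 alternatives besides the stricter threshold, 18 of the 29 member calls at 120 min, 1 of 3 at 60 min (Sema6b) and 6 of the 8 largest differences between 120 and 60 min were kept in each, and 0 of these calls reversed. With library totals, 1 member was lower at 60 min (Efna4, adjusted p = 0.047). At an adjusted p under 0.01, 1 member was higher at 60 min, 1 was higher at 60 than at 10 min, 10 were lower at 120 than at 60 min and 17 differed at any time; of the effectors, 0 were lower at 60 min and 9 at 120 min. With only the 2 groups compared, 1 effector was lower at 60 min. The cause of these shifts was not tested, beyond the stricter threshold itself. Leaving out 1 library at a time, the counts of members ran from 0 to 2 for lower at 5 min, from 1 to 3 for higher at 60 min, from 12 to 22 for lower at 120 min, from 0 to 2 for higher at 10 than at 5 min, from 1 to 4 for higher at 60 than at 10 min, from 5 to 10 for higher and from 10 to 21 for lower at 120 than at 60 min, and from 14 to 34 at any time. Those of effectors ran from 0 to 1 for lower at 5 min, from 0 to 2 for lower at 60 min and from 9 to 23 for lower at 120 min. The planned edgeR and DESeq2 tests were not run.

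Repeat numbers were not taken to pair the libraries: same-numbered libraries of 2 groups had deviations correlated between -0.164 and 0.274, and not every pair of groups was over 0.1. Those among mock, 5 and 10 min were (0.102 to 0.274), while those with 60 or 120 min were at most 0.0524. With the repeat number as a replicate block, 1 member was higher at 10 than at 5 min, 0 effectors were lower at 60 min, and Sema7a was called at 60 min (adjusted p = 0.049), while Efna2 was not called at 120 min (adjusted p = 0.056).

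Of the 10 members with a mean under 10 CPM in mock 3 were called at 120 min, and their log2(CPM + 1) differences understate fold changes; depth as a limit on the others was not tested.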

Other observations

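The X-linked plexin genes Plxna3 and Plxnb3, named after their values were seen, were lowest in 5 min replicate 2. That library stood apart on a component computed from members that include both genes, so the 2 observations are not independent. Over all genes, log2 differences between the 2 repeats had an SD of 0.164 at 5 min, against 0.113 to 0.125 in the other groups. Plxna3 had 60.6 and 57.6 CPM in mock, 49.5 and 39.1 at 5 min, 63.8 and 53.5 at 10 min, 60.4 and 63.6 at 60 min, and 53.8 and 57.0 CPM at 120 min. Plxnb3 had 15.9 and 12.6 CPM in mock, 11.5 and 6.67 at 5 min, 17.1 and 14.0 at 10 min, 12.7 and 12.8 at 60 min, and 11.3 and 9.03 CPM at 120 min. In both genes the 5 min libraries lay below both mock libraries without passing the limma test (log2 fold changes -0.42 and -0.63, adjusted p = 0.19 and 0.2).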
